A study of Mus musculus with 18 samples.

Results

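The mitochondrial ribosomal proteins were taken as every protein-coding gene whose symbol began with Mrpl or Mrps followed by a digit, and they made up 78 of the 16545 genes measured. Of these, 49 carried a large-subunit (Mrpl) name and 29 a small-subunit (Mrps) name. Their messenger RNAs were followed in total splenic B cells of C57BL/6 mice before stimulation and after lipopolysaccharide (LPS, an outer membrane glycolipid of bacteria that drives B cells into growth and division) for 24 h or 48 h, by RNA sequencing of bulk RNA. The *Zbtb24* B-CKO mice were, by the study's methods, *Zbtb24*loxp/loxp and heterozygous for a B cell Cre recombinase, active from early B cell stages on, and the controls were littermates with the same Cre and unmodified *Zbtb24*. Recombination removes the *Zbtb24* exon with the translation start. Each of the 6 groups (2 genotypes at 0 h, 24 h and 48 h) had 3 libraries, 18 in all. Each library of a group came from a different mouse. The sex and age of these mice, the LPS dose and whether a replicate number marks the same mouse over time were not given in the sources used here.

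Mitochondria keep a small genome of their own, and its messenger RNAs are translated inside the organelle by a dedicated ribosome. All protein subunits of this mitoribosome are encoded in the nucleus, made in the cytosol and imported, whereas its RNA comes from the mitochondrial genome. The products it makes are core subunits of the respiratory chain and of ATP synthase. Some of its proteins have relatives in bacterial ribosomes and others occur only in mitochondria.

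Promoters of 5 members are shown because *Mrpl12*, *Mrpl20*, *Mrps6* and *Mrpl42* were among the 5 members with the largest rise on the log2(FPKM + 1) scale in control cells and *Mrpl52* had the largest fall after it, and because each window ends at the base before the annotated gene. Each is 90 bases long, read 5′ to 3′ on the gene's strand from RefSeq on GRCm38.p6. The windows are chr11:120484547-120484636 on the plus strand for *Mrpl12*, chr4:155802788-155802877 on the plus strand for *Mrpl20*, chr16:92058246-92058335 on the plus strand for *Mrps6*, chr10:95501950-95502039 on the minus strand for *Mrpl42* and chr14:54426819-54426908 on the plus strand for *Mrpl52*. Capitals mark the letters of a searched motif.
Mrpl12: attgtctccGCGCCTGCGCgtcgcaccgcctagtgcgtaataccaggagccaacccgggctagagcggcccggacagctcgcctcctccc
Mrpl20: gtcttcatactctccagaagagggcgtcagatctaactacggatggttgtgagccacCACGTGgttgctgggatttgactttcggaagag
Mrps6: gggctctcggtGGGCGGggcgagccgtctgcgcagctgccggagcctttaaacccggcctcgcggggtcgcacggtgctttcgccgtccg
Mrpl42: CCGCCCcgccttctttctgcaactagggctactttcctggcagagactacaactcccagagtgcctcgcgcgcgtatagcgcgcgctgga
Mrpl52: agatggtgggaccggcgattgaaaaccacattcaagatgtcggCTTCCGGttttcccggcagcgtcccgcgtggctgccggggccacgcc

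In *Mrpl12* the capitals match the palindromic motif of nuclear respiratory factor 1, with its free base, on the opposite strand, in *Mrpl20* the E-box CACGTG, in *Mrps6* and on the opposite strand in *Mrpl42* the GC-box GGGCGG, and in *Mrpl52* the ETS motif CCGGAAG on the opposite strand. A RefSeq promoter of 250 bases before to 50 bases after the start was matched for 69 of the 78 members and for 13082 other genes, and both strands were searched. CCGGAAG was present in 37.7% of the members' promoters and in 16.3% of the others, and CCGGAAGT, which contains it, in 17.4% and 7.3%. The nuclear respiratory factor 1 motif was present in 18.8% and 9.23%. AAGATGGCG, the letters bound by YY1, was found in 11.6% against 2.78%. The E-box CACGTG (7.25% against 10.5%), CCAAT (39.1% against 42.5%) and GGGCGG (49.3% against 60.7%) were held by a smaller share of members than of other genes. In control cells stimulated for 24 h, the members holding CCGGAAG showed a median log2 fold change of 1.26 and the members lacking it 1.37. With and without the motif, the medians were 1.56 and 1.33 for the E-box (held by 5 members), 1.16 and 1.34 for AAGATGGCG (8 members), 1.29 and 1.35 for the nuclear respiratory factor 1 motif (13 members) and 0.82 and 1.35 for its strict form with no free base (3 members). For CCGGAAGT, CCAAT and GGGCGG both medians were 1.34. These matches are a description of the letters in the window and were not tested.

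The label check gave lower *Zbtb24* in every B-CKO library than in every control library of the same time. It read 49.56, 49.62 and 37.05 FPKM (fragment counts scaled to transcript length and to library size) in control cells at 0 h against 14.33, 10.53 and 12.57 in B-CKO cells, with adjusted p = 0.12 in limma, and the adjusted p was 0.0586 at 24 h and 0.267 at 48 h. A set of 8 B cell markers, none of them at 0, summed to 13880 to 16052 FPKM in control cells at 0 h, 4928 to 5465 at 24 h and 5537 to 6013 at 48 h. The 5 plasma cell markers summed to 251 to 420, 138 to 154 and 194 to 316 FPKM at the same times. The 9 T cell markers were *Cd3d*, *Cd3e*, *Cd3g*, *Cd4*, *Cd8a*, *Cd8b1*, *Cd5*, *Thy1* and *Cd2*. They summed to 198 to 203 FPKM in control cells at 0 h and to 27.3 to 30.2 at 24 h. The study describes CD5 as highly expressed by B1 cells, so this sum is not specific to T cells. The 9 myeloid markers summed to 3.99 to 8.33 and 3.76 to 5.19 FPKM at these times, with *Elane* at 0 in all 3 control libraries of each time. Since FPKM are shares of a library and the samples are bulk RNA, a smaller number of cells of a type and less RNA per cell cannot be told apart. The part of these markers in the results on the members was not tested.

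All 78 members were above 0 FPKM in every library, and the lowest single value was 2.4 FPKM. In resting control cells the means ran 21.5-fold from *Mrpl17* to *Mrpl24*, a scale on which genes can be compared because FPKM are per length. The 3 highest were *Mrpl24* at 60.6, *Mrpl30* at 55.7 and *Mrpl52* at 53.7 FPKM, all large-subunit proteins. The 3 lowest were *Mrpl17* at 2.81, *Mrps25* at 3.97 and *Mrpl35* at 5.60 FPKM. *Mrpl17* read 2.86, 2.59 and 2.99 and *Mrps25* 4.63, 4.40 and 2.87 FPKM, so these neighbours overlapped, while *Mrpl35* at 5.33, 5.19 and 6.27 FPKM lay above both. At the top *Mrpl30* (62.57, 55.55 and 48.94) overlapped *Mrpl24* (69.3, 56.12 and 56.26) and *Mrpl52* (53.87, 54.71 and 52.62), which did not overlap each other. At 24 h *Mrpl12* was the highest member, with means of 185 FPKM in control cells and 212 in B-CKO cells, and *Mrps25* the lowest, at 8.74 and 8.71 FPKM.

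The members' summed share of all FPKM was 0.329% to 0.391% in control cells at 0 h, rising to 0.779% to 0.803% after 24 h and standing at 0.651% to 0.675% after 48 h. In B-CKO cells the shares were 0.341% to 0.394%, 0.814% to 0.827% and 0.655% to 0.671%. The 3 times did not overlap in either genotype, and the 24 h libraries were the highest in both. For comparison, the respiratory chain subunits took 1.24% to 1.35% at 0 h, 2.43% to 2.53% at 24 h and 2.54% to 2.57% at 48 h in control cells, and the cytosolic ribosomal proteins 21.1% to 21.4%, 23.7% to 24.5% and 24.2% to 25.3%. Between 24 h and 48 h the respiratory chain ranges were higher at 48 h without overlap in control cells but overlapped in B-CKO cells (2.53% to 2.57% and 2.53% to 2.63%), the cytosolic ranges overlapped in both, and the members' ranges were lower at 48 h without overlap in both. The libraries at 0 h spread more than the stimulated ones, with a median SD of the members on the log2 scale of 0.208 in control cells at 0 h, 0.0585 at 24 h and 0.0695 at 48 h. Replicate 1 was the highest of its group at 0 h for 63 of 78 members in control and 57 of 78 in B-CKO cells, and control replicate 3 was the lowest for 57.

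**Figure D1:**
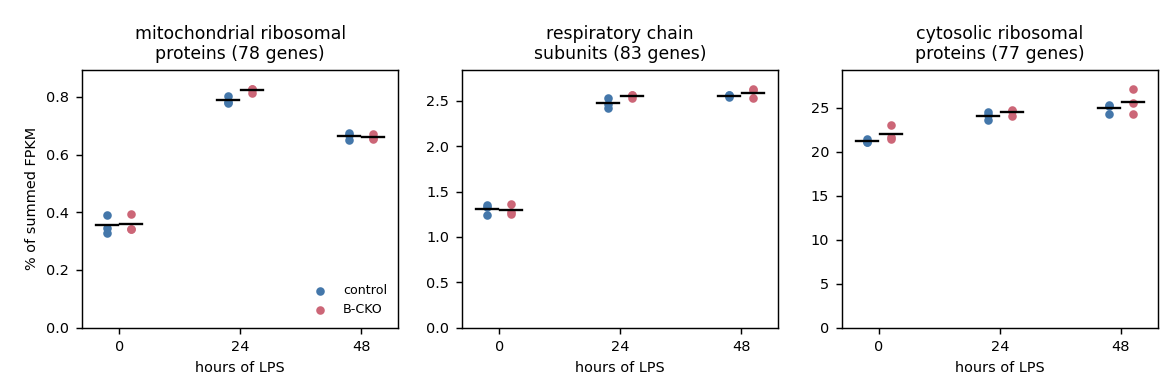
Share of summed FPKM (%) taken by the mitochondrial ribosomal proteins, the respiratory chain subunits and the cytosolic ribosomal proteins against hours of LPS. Each point is 1 library, with 3 per group, and axes start at 0; the members sit highest at 24 h, at 0.779% to 0.803% in control cells.

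**Figure D2:**
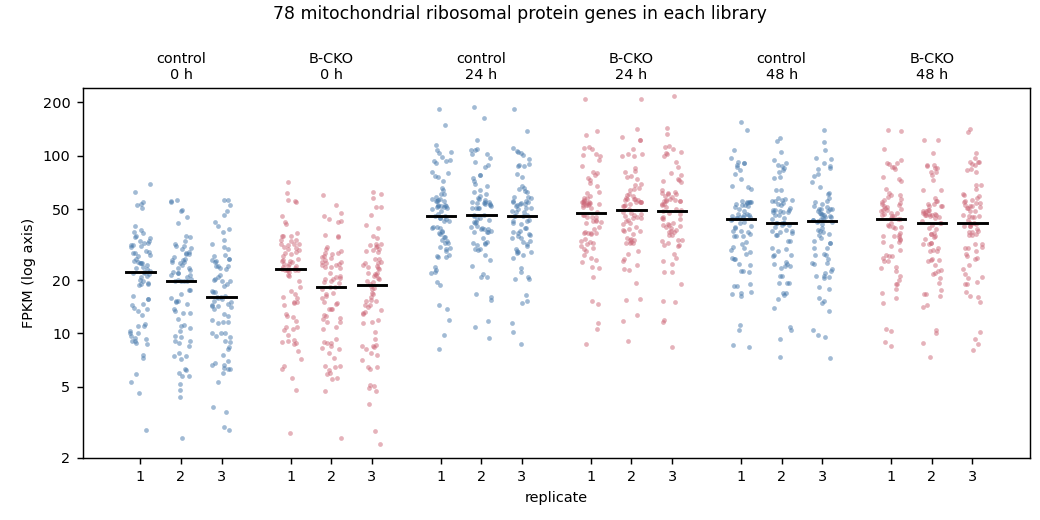
FPKM of the 78 members (log axis) in each of the 18 libraries, ordered by genotype and time, with replicate number on the horizontal axis; each point is 1 gene and the bar is the members' median. Medians run from 15.98 to 23.05 FPKM in resting libraries and from 41.86 to 49.52 FPKM in stimulated ones.

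To ask how the module responds to activation, control cells at 24 h of LPS were compared with resting control cells. Of the 78 members, 77 were higher and 0 lower, where 26.7% of the 15531 genes tested were higher and 30.7% lower. The median log2 fold change was 1.31, a median of 2.53-fold, and single members ranged from 0.29 to 2.35, while the median over all genes tested was -0.02. The lowest 24 h library exceeded the highest 0 h library for all 78 members, against 29.1% of all genes. Leaving out any 1 library left between 76 and 78 members called. Relative depth of the control libraries, read from the steps of low values, was 0.881 to 0.909 at 0 h and 1.055 to 1.057 at 24 h. Its part in the difference was not tested.

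*Mrpl12* (gene ID 56282, chromosome 11, 120484637 to 120488754 in GRCm38), the stalk protein that contacts translation factors, read 40.13, 35.14 and 31.85 FPKM at 0 h and 184.16, 187.95 and 183.98 at 24 h in control cells. All 24 h values were above all 0 h values, and the mean was 5.19-fold higher (log2 fold change 2.35 ± 0.09 SE on the log2(FPKM + 1) scale, adjusted p = 7.62e-06). *Mrpl18*, a protein of the central protuberance, read 33.13, 21.86 and 16.1 FPKM and then 98.35, 109.7 and 106.11, a 4.42-fold higher mean (2.15 ± 0.24, adjusted p = 0.000415). *Mrps6*, a small-subunit protein with a bacterial relative, read 8.68, 6.27 and 3.6 FPKM and then 26.89, 31.45 and 28.9 (2.13 ± 0.26, adjusted p = 0.000664). In *Mrps6* and *Mrpl18* the resting libraries differed from each other by more than 2-fold, with replicate 1 highest, yet no groups overlapped. *Mrpl42*, a mitochondria-specific protein, read 30.66, 28.48 and 16.11 and then 104.09, 102.84 and 103.55 FPKM (2.05 ± 0.23, adjusted p = 0.000428). *Mrpl20*, whose bacterial relative is needed early in assembly of the large subunit, read 28.25, 25.95 and 23.94 and then 107.42, 108.29 and 105.33 FPKM (2.00 ± 0.07, adjusted p = 6.84e-06). These 5 were the largest rises of the module in control cells on the log2(FPKM + 1) scale, whereas by the ratio of means *Mrpl44* (4.25-fold), *Mrps22* (4.24-fold) and *Mrpl15* (4.14-fold) stood above *Mrpl42* (4.13-fold) and *Mrpl20* (4.11-fold).

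The members were also counted by role, beside the 26.7% of all genes tested that were higher and the 77 of 78 members of the whole module. Of the proteins with bacterial relatives, 29 of 30 in the large subunit (median log2 fold change 1.35) and 15 of 15 in the small subunit (1.32) were higher. Of the mitochondria-specific proteins, 20 of 20 in the large subunit (1.32) and 10 of 10 in the small subunit (1.16) were higher. Proteins that line the tunnel exit, where the new chain leaves and is passed to the inner membrane, were higher in 6 of 6 (1.52), from 0.41 for *Mrpl24* to 1.89 for *Mrpl47*. *Mrpl45*, which holds the particle at the inner membrane, had a log2 fold change of 1.70 ± 0.10 (adjusted p = 3.09e-05). In the stalk, *Mrpl10* (0.72) and *Mrpl11* (1.10) at its base had smaller values than *Mrpl12*. The 3 paralogs of the S18 protein, of which a particle holds *Mrps18b* and *Mrps18c* in the small and *Mrps18a* in the large subunit, had values of 1.31, 1.16 and 1.12. *Mrps36*, *Mrps18a* and *Mrps18b* stood outside the 4 classes by origin and were higher as well.

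**Figure D3:**
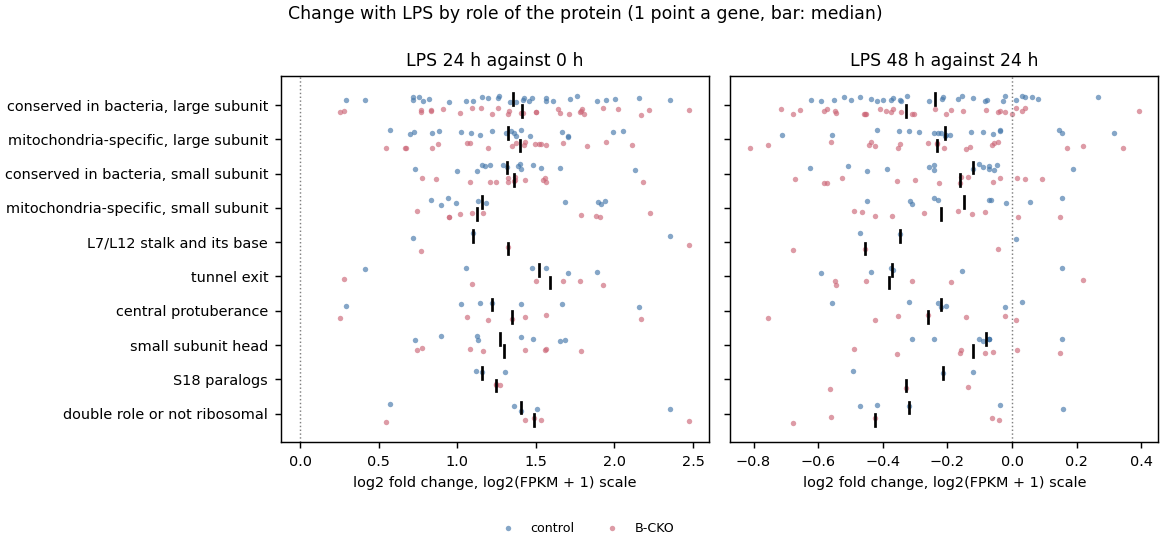
Log2 fold change on the log2(FPKM + 1) scale for LPS 24 h against 0 h (left) and 48 h against 24 h (right), by role list, control in blue and B-CKO in red. Each point is 1 gene, a gene may stand in several lists and bars are medians; on the left all points are above 0, and on the right most are below 0.

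Against the same 26.7% of genes and 77 of 78 members, those linked to inherited mitochondrial disease were higher in 12 of 12 (median 1.45), among them *Mrpl44* (1.99), *Mrps22* (1.94), *Mrps28* (1.89) and *Mrps7* (1.65). The 5 members with a known role beside the mitoribosome, or whose place is elsewhere, were higher too. *Mrpl58*, a peptidyl-tRNA hydrolase built into the large subunit, had a log2 fold change of 1.40, and *Mrps36*, which despite its name is a subunit of the oxoglutarate dehydrogenase complex, had 1.51. *Mrps30*, a large-subunit protein despite its name, had 0.57 ± 0.11 (adjusted p = 0.00531) and read 22.42, 25.25 and 30.59 FPKM at 0 h against 39.56, 39.57 and 37.72 at 24 h.

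*Mrpl27* and *Mrpl24* stood at the other end. *Mrpl27*, whose bacterial relative reaches the peptidyl transferase centre, read 29.08, 35.34 and 42.62 FPKM at 0 h and 44.44, 42.63 and 43.14 at 24 h, and missed the threshold (0.29 ± 0.13, adjusted p = 0.108). The groups touched but did not overlap, and unlike most members its highest resting library was replicate 3. *Mrpl24*, at the tunnel exit, read 69.3, 56.12 and 56.26 FPKM and then 76.41, 78.3 and 87.36 (0.41 ± 0.10, adjusted p = 0.0134). The highest member at rest thus had the second smallest rise. Over the 18 libraries the log2 profiles of *Mrps27* (Pearson r = 0.997), *Mrpl36* (0.996) and *Mrpl12* (0.995) were most like the members' median profile, and those of *Mrpl54* (0.83), *Mrpl27* (0.67) and *Mrpl24* (0.31) least like it. Among 11533 other genes, the proteasome subunit *Psma5* (0.999), the COP9 signalosome subunit *Cops6* (0.998) and the proteasome assembly chaperone *Psmg1* (0.998) had the profiles most like that median. Library depth and time are shared by all 18 points, so these values are a description.

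The reads of some members cannot be told apart from those of a neighbour, because 21 of 78 share exonic bases with another gene of the table and strandedness of the libraries was not given. Overlap was on the same strand for 3, *Mrps6* (10.4% of its exonic bases, with *Slc5a3*), *Mrps24* (15.4%, with *Urgcp*) and *Mrps34* (37%, with *Nme3*). It was on the opposite strand for 19, including *Mrps25* (69.8%, with *Nr2c2*), *Mrpl24* (26.3%, with *Rrnad1*), *Mrpl14* (11.2%, with *Tmem63b*), *Mrpl18* (10.1%, with *Tcp1*) and *Mrpl27* (7.61%, with *Eme1*).

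The other parts of the mitochondrial translation apparatus were examined in the same fit. The 5 mitoribosome subunits with other names were all higher at 24 h, with log2 fold changes of 1.68 for *Gadd45gip1* (14.9 to 49.5 FPKM), 1.59 for *Chchd1*, 1.12 for *Ptcd3* and 0.66 for *Dap3*. Of 25 assembly factors 18 were higher and 1 lower (median 0.58), among them the ribosomal RNA methyltransferases *Mrm3* (1.24) and *Mrm2* (1.17). Of 13 translation factors tested 9 were higher (median 0.47), including the elongation factors *Tsfm* (2.20) and *Tufm*, the latter from 38.52, 29.99 and 23.72 FPKM to 140.33, 141.24 and 141.41 (2.19 ± 0.16, adjusted p = 7.62e-05). All 23 import genes were higher (median 1.55), among them the chaperonin *Hspd1* (70.7 to 562 FPKM). Of 11 genes for expression and upkeep of mitochondrial DNA 5 were higher and 1 lower (median 0.28), with *Slirp* at 2.11 and its partner *Lrpprc* at 1.35. Of 9 regulators linked to mitochondrial biogenesis 3 were higher and 4 lower: *Pprc1* was 2.21-fold higher, while *Myc* fell from 229.9 to 113.2 FPKM and *Ppargc1a* from 0.687 to 0.167 FPKM. Respiratory chain subunits were higher in 74 of 83 (median 1.10) and cytosolic ribosomal proteins in 52 of 77 (median 0.32). The difference between these lists and the members was not tested.

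The same comparison in B-CKO cells gave 78 of 78 members higher, where 27.5% of 15551 genes tested were higher, with a median of 1.36 and a range of 0.26 to 2.48. All 77 members called in control cells were among them. *Mrpl12* read 42.39, 35.5 and 34.54 FPKM at 0 h and 210.48, 209.53 and 217 at 24 h (2.48 ± 0.08, adjusted p = 3.78e-06). *Mrps22*, a mitochondria-specific small-subunit protein linked to disease, came next with 7.16, 6.57 and 5.06 FPKM and then 33.15, 33.5 and 31.63 (2.23 ± 0.12, adjusted p = 1.46e-05). No groups overlapped for either gene. *Mrpl20* (2.22), *Mrps6* (2.18) and *Mrpl18* (2.17) followed, so that 4 of the 5 largest rises were of the same genes as in control cells. *Mrpl27*, which missed the threshold in control cells, passed it here (0.26 ± 0.09, adjusted p = 0.0418), and this does not show that its response differed between genotypes.

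Between 24 h and 48 h the module fell in part. In control cells 43 members were lower and 4 higher, where 24.8% of 15178 genes tested were lower and 20.1% higher. The median log2 fold change was -0.21 (range -0.71 to 0.32), against -0.00 over all genes tested. With 1 fit of all 18 libraries 27 members were called, all lower, and the share of all genes called in that fit was not counted. This comparison shares the 24 h libraries with the one above, so the rise and the fall are given side by side only. In B-CKO cells, where no library is shared with control cells, 48 members were lower and 4 higher, against 24% and 21.7% of 15253 genes, with a median of -0.25. Over the same interval the T cell markers went from 27.3 to 30.2 FPKM to 57.6 to 73.9 in control and from 21.7 to 24.6 to 52.4 to 74.7 in B-CKO cells. The plasma cell markers went from 138 to 154 FPKM to 194 to 316 in control and from 135 to 139 to 229 to 250.2 in B-CKO cells, and the part of either list in the fall was not tested. The lower members common to both genotypes numbered 41, which is 41 of 43 in control and 41 of 48 in B-CKO cells.

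*Mrpl52*, a mitochondria-specific protein, read 148.66, 162.85 and 137.97 FPKM at 24 h and 88.77, 87.82 and 96.22 at 48 h in control cells (-0.71 ± 0.07, adjusted p = 0.000255). In B-CKO cells it read 138.27, 141.78 and 144.54 and then 84.31, 72.84 and 83.93 (-0.81 ± 0.06, adjusted p = 7.69e-05). It had the largest fall in both genotypes and no groups overlapped. *Mrpl38*, a mitochondria-specific protein of the central protuberance, went from 50.17, 55.28 and 52.02 to 35.38, 36.01 and 34.64 FPKM in control cells (-0.56 ± 0.04, adjusted p = 0.000115) and by -0.75 ± 0.03 in B-CKO cells (adjusted p = 1.47e-05). *Mrps6* fell by 0.62 and 0.67 on the log2 scale and *Mrpl55*, a relative of bacterial L31, by 0.62 and 0.72 in control and B-CKO cells. In 1 fit of all 18 libraries the control call of *Mrps6* was lost (adjusted p = 0.0668, the highest of a range from 2.67e-07 over 13 alternatives). *Mrpl24* fell by 0.59 in control cells, to 52.2, 56.2 and 51.27 FPKM, which overlapped its resting values. *Mrpl12* fell to 156.13, 126.94 and 120.03 FPKM in control cells (-0.47 ± 0.09, adjusted p = 0.00587) and to 138.79, 122.86 and 135.84 in B-CKO cells (-0.68 ± 0.05, adjusted p = 8.1e-05), with the control libraries at 48 h spread more widely.

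By role, 4 of 6 tunnel exit members (median -0.37), 5 of 7 of the central protuberance (-0.22) and 2 of 8 of the small-subunit head (-0.08) were lower in control cells, where 24.8% of all genes tested were lower. Differences between these lists were not tested. Large-subunit names were lower in 29 of 49 and small-subunit names in 14 of 29. *Mrpl18* stayed at 108.57, 104.55 and 107.92 FPKM (0.03 ± 0.04, adjusted p = 0.612) and *Mrpl44* had a value of -0.09 (adjusted p = 0.265). Among other genes of the apparatus, 8 of 13 translation factors, 9 of 11 genes for mitochondrial DNA expression, 13 of 25 assembly factors and 17 of 23 import genes were lower, and *Hspd1* fell by 0.84 on the log2 scale. Respiratory chain subunits were higher in 29 and lower in 10 of 83, and cytosolic ribosomal proteins higher in 10 and lower in 0 of 77.

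The 4 members that were higher at 48 h in control cells had small values. *Mrpl14*, a protein at the face that joins the subunits, read 37.97, 39.01 and 34.61 FPKM at 24 h and 45.04, 42.13 and 47.56 at 48 h (0.27 ± 0.06, adjusted p = 0.0108), and in B-CKO cells 36.47, 37.72 and 40.67 and then 51.65, 47.62 and 52.4 (0.39 ± 0.05, adjusted p = 0.00119). *Mrpl45* (0.15 ± 0.05 in control cells, adjusted p = 0.0436) and the mitochondria-specific *Mrpl57* (0.32 ± 0.09 in control cells, adjusted p = 0.0221) were also higher in both genotypes, and *Mrps33* (0.15 ± 0.05, adjusted p = 0.0478) in control and *Mrpl54* (0.17 ± 0.04, adjusted p = 0.0163) in B-CKO cells. *Mrpl14* passed the threshold without any 1 library, with an adjusted p of 0.0112 to 0.037 in control cells, but in 1 fit of all 18 libraries it was 0.296 in control and 0.103 in B-CKO cells. The adjusted p reached 0.0772 for *Mrpl57*, 0.131 for *Mrpl45* and 0.138 for *Mrps33* when 1 library was left out. These control calls of *Mrpl45* and *Mrps33* were also lost with TPM scaling, and those of *Mrpl57* and *Mrps33* with the replicate block. In 1 fit of all 18 libraries the control calls of *Mrpl57*, *Mrpl45* and *Mrps33* were lost too. In B-CKO cells it reached 0.0618 for *Mrpl54* and 0.0658 for *Mrpl57*. With the replicate number as a block *Mrpl54* had an adjusted p of 0.0504, and in 1 fit of all 18 libraries the B-CKO calls of *Mrpl54* (adjusted p = 0.499), *Mrpl45* (0.0521) and *Mrpl57* (0.0517) were lost as well.

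**Figure D4:**
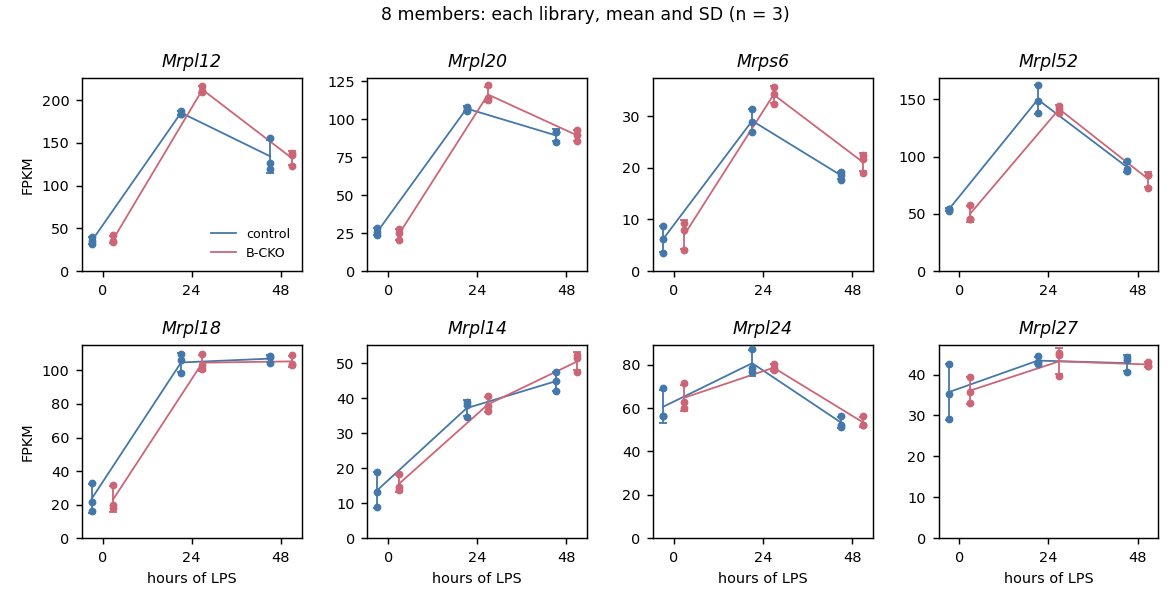
FPKM against hours of LPS for 8 members, control in blue and B-CKO in red, shifted sideways for legibility; points are libraries, lines join means and bars are the SD of 3 libraries, with axes from 0. *Mrpl12*, *Mrpl20*, *Mrps6* and *Mrpl52* peak at 24 h, *Mrpl18* stays level after 24 h, *Mrpl14* is highest at 48 h, and *Mrpl24* and *Mrpl27* have the smallest rises from 0 h to 24 h.

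Against rest, 76 members were higher at 48 h and 0 lower in control cells, where 26.5% of the 15584 genes tested were higher and 30.3% lower, with a median log2 fold change of 1.05. *Mrpl27* (0.27 ± 0.14, adjusted p = 0.136) and *Mrpl24* (-0.18 ± 0.10, adjusted p = 0.171) were the 2 that did not pass. The largest value was that of *Mrpl18*, 4.52-fold (2.19 ± 0.23, adjusted p = 0.000332), followed by *Mrpl44* (1.90), *Mrpl12* (1.88), *Mrpl45* (1.85) and *Mrpl42* (1.84). *Mrpl44*, a mitochondria-specific protein with an RNase III-like fold, read 11.01, 7.49 and 6.84 FPKM at 0 h and 35.54, 33.07 and 32.49 at 48 h, with no overlap. In B-CKO cells 76 were higher and 1 lower, against 27% and 30.7% of 15695 genes, with a median of 1.07. The lower one was *Mrpl24*, at 71.51, 60.09 and 62.78 FPKM at 0 h and 52.02, 52.27 and 56.12 at 48 h (-0.27 ± 0.08, adjusted p = 0.0269). Without B-CKO replicate 1 or 2 at 48 h this call was lost, and over the leave-outs of 1 library its adjusted p ran from 0.0234 to 0.0981.

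The genotypes were then compared at each time, which asks whether loss of *Zbtb24* changes the module. At 0 h limma called 0 of 78 members and 0% of the 15641 genes tested, and 0 members had an unadjusted p under 0.05, where 2% of genes did. With the replicate number as a block 0 were called, and 4 had an unadjusted p under 0.05, all higher in B-CKO cells, where 5.7% of genes did. The median difference was 0.03 on the log2 scale. Its sign was not the same in all pairs of same-numbered libraries, with medians of 0.04, -0.04 and 0.13 in replicates 1, 2 and 3, and it turned to -0.05 without B-CKO replicate 1 and -0.07 without control replicate 3, which leave 1 pair incomplete. *Mrps35*, in the small-subunit head, had the largest difference, with 21.35, 16.7 and 16.9 FPKM in B-CKO and 19.27, 14.98 and 12.6 in control cells (0.23 ± 0.18, 95% interval -0.20 to 0.65, unadjusted p = 0.239 in limma, and 0.0324 with the block, where the interval was 0.03 to 0.43 and the adjusted p 0.843, with a range of 0.594 to 1 over 13 alternatives). The groups overlapped, although B-CKO was higher in all 3 pairs, and 1 member, *Mrpl32*, did not overlap between genotypes, where 1.92% of genes were higher without overlap. *Mrpl55* had the largest difference in the other direction, and its groups overlapped (-0.18 ± 0.13, unadjusted p = 0.197 in limma and 0.0675 with the block). At 0 h the T cell markers summed to 153 to 183 FPKM in B-CKO and 198 to 203 in control cells, without overlap. Their part in the difference was not tested.

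At 24 h 0 of 78 members passed in limma, where 0.0993% of 15104 genes did. At an unadjusted p under 0.05, 24 members were higher and 1 lower in B-CKO cells, where 6.79% of genes were higher and 9.51% lower. The groups did not overlap for 21 members that were higher and 1 that was lower, against 8.43% and 11.7% of genes. The median difference was 0.07 on the log2 scale, a median of 1.05-fold, while the median over all genes tested was -0.00. On the log2(FPKM + 1) scale 69 of 78 members had a higher mean in B-CKO cells. The number with a higher mean on this scale was 65 after rescaling to TPM, 74 after median ratio scaling and 66 to 72 without any 1 library. With only genes of a mean of at least 1 FPKM in the test, 4 members passed, all higher. The share of all genes passing in that fit was not counted. Respiratory chain subunits had a median of 0.05 and cytosolic ribosomal proteins of 0.04.

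*Mrpl12* had the smallest p at 24 h, with 210.48, 209.53 and 217 FPKM in B-CKO and 184.16, 187.95 and 183.98 in control cells. Every B-CKO library was above every control library, and the difference on the log2 scale was small against the change with LPS (0.19 ± 0.02, 95% interval 0.14 to 0.25, adjusted p = 0.0586, with a range of 0.0159 to 1 over 13 alternatives). *Mrps31*, a mitochondria-specific protein of the small-subunit head, read 23.48, 25.46 and 24.65 against 19.42, 20.89 and 20.24 FPKM (0.27 ± 0.04, 95% interval 0.17 to 0.37, adjusted p = 0.0724, with a range of 0.0111 to 1 over 13 alternatives). It was the largest difference of the module, again with no overlap. *Mrpl49* (42.47, 41.8 and 41.7 against 37.49, 38.92 and 37.14 FPKM), *Mrps22* (33.15, 33.5 and 31.63 against 27.36, 29.75 and 29.06) and *Mrps21* (132, 127.87 and 132.12 against 115.71, 123.44 and 111.33) had differences of 0.15, 0.18 and 0.16 with adjusted p of 0.0904, 0.112 and 0.138. *Mrps16*, a disease-linked small-subunit protein, was the member that was lower without overlap, at 87.84, 80.92 and 86.6 against 91.55, 89.19 and 90.36 FPKM (-0.09 ± 0.03, adjusted p = 0.288). At this time the 8 B cell markers summed to 4361 to 4499 FPKM in B-CKO and 4928 to 5465 in control cells, and the T cell markers to 21.7 to 24.6 and 27.3 to 30.2, both lower in B-CKO cells without overlap. Their part in the difference was not tested.

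At 48 h limma called 0 of 78 members, where 0.046% of 15210 genes were called. At an unadjusted p under 0.05, 7 members were higher and 3 lower, against 3.57% and 4.14% of genes, and 6 were higher and 3 lower without overlap, against 4.89% and 6.24%. The median difference was 0.01 and 46 members had a higher mean in B-CKO cells on the log2(FPKM + 1) scale. This direction turned after rescaling to TPM, with 36 higher, a median of -0.01 and 4 higher against 7 lower without overlap. *Mrpl45* had the smallest p, with 54.5, 53.29 and 51.15 FPKM in B-CKO and 46.5, 48.36 and 43.82 in control cells (0.19 ± 0.05, 95% interval 0.08 to 0.31, adjusted p = 0.361), without overlap. *Mrpl14* (0.17) and *Mrpl9* (0.10) were higher and *Mrpl38* (-0.11) and *Mrpl52* (-0.18) lower, also without overlap, with adjusted p between 0.506 and 0.593. *Mrpl12* read 138.79, 122.86 and 135.84 against 156.13, 126.94 and 120.03 FPKM, and these groups overlapped.

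**Figure D5:**
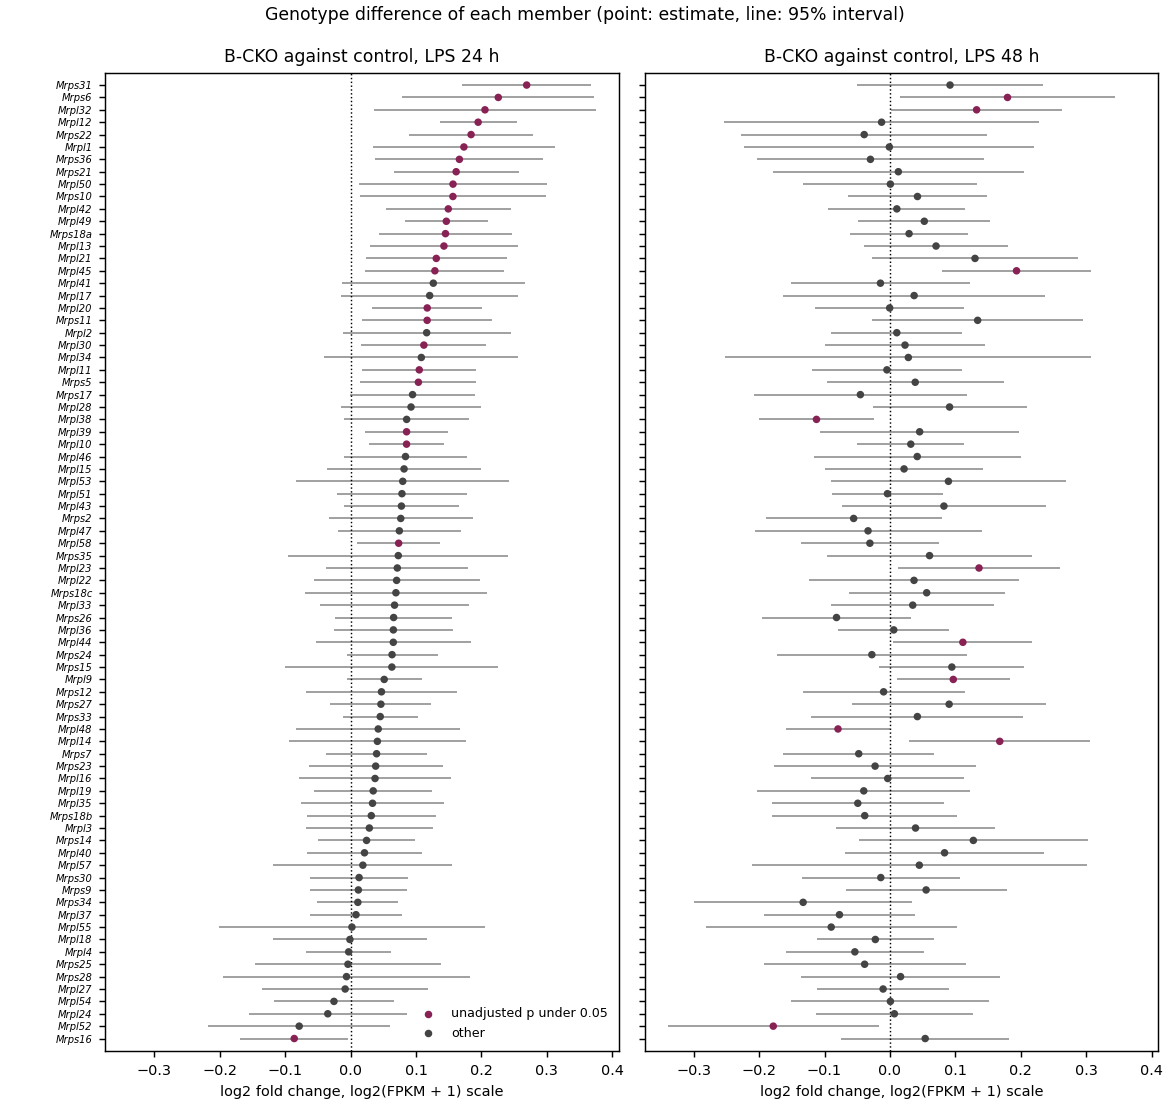
Difference between B-CKO and control cells for each of the 78 members at 24 h (left) and 48 h (right) of LPS, as log2 fold change on the log2(FPKM + 1) scale, with the 95% interval of the limma fit as a line, in the same gene order. At 24 h 69 points lie above 0 and at 48 h 46 do, and coloured points had an unadjusted p under 0.05, none of which passed adjustment.

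Whether the response to LPS differed between genotypes was tested by the interaction in 12 libraries. For 24 h against 0 h limma called 0 members and 0% of 16182 genes, and at an unadjusted p under 0.05 the change was larger in B-CKO cells for 2 members, *Mrpl11* (0.22 ± 0.09, unadjusted p = 0.0398, adjusted p = 1) and *Mrpl13* (0.18 ± 0.08, unadjusted p = 0.0497, adjusted p = 1), where 1.38% of genes did. The median interaction was 0.04, and between -0.05 and 0.15 without any 1 library, so that its sign changed with the library left out. For 48 h against 24 h 0 members and 0% of 15844 genes were called, 5 members had a lower interaction at an unadjusted p under 0.05, where 3.38% of genes did, and the median was -0.06. *Mrpl38* had the smallest p (-0.20 ± 0.05, unadjusted p = 0.00332, adjusted p = 0.527), followed by *Mrps31* (-0.18), *Mrps26* (-0.15), *Mrps22* (-0.22) and *Mrpl42* (-0.14).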

How the data were processed

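Total RNA of the 18 libraries was sequenced as 2 x 150 paired ends; the labels name an MGI2000 instrument and the study's methods a HiSeq or Novaseq. The authors mapped reads to mm10 and deposited FPKM per gene, rounded to 2 decimals; the methods name bowtie2, Cufflinks and RSEM, and the submitters' processing notes also BWA and DESeq2. Counts were not used here, so limma replaced a count test. Total depth is unknown; from the steps of low values, whole within 6% for 50 of 97 genes, relative depth was 0.881 to 0.925 at 0 h, 1.055 to 1.07 at 24 h and 1.009 to 1.07 at 48 h.

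Gene IDs were matched to RefSeq symbols for 16512 genes. Log2(FPKM + 1) was fitted in limma 3.58.1 (R 4.3.3; lmFit, eBayes with trend) on the 6 libraries compared, or 12 for interactions, over genes above 0 in any of them, with Benjamini-Hochberg adjustment over all genes tested and a threshold of 0.05. The test was checked on simulated data, where the share of false calls exceeded the threshold and small changes at 0 h were mostly not recovered. Of the B cell markers 1 is not reported here. "Higher" and "lower" without other words mean that adjusted p was under 0.05. Tables and plots used Python 3.11.15, numpy 2.4.6, pandas 2.3.3 and matplotlib 3.10.9. Exon overlaps came from GENCODE on GRCm38.

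The members and gene lists were chosen with earlier results of these data known. Members named were, per comparison, the 5 with the largest change each way among those called without overlap, in genotype comparisons the 5 with the smallest p, members of the stalk, tunnel exit, S18, disease-linked and other-role lists, the 3 highest and lowest at rest and the 3 most and least like the median profile; up to 4 called genes were named per other list. *Mrps24* and the promoters printed were chosen after their values were seen.

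The same replicate numbers recur in every group. Deviations from group means correlated at 0.854, 0.468 and 0.789 between same-numbered libraries of both genotypes at 0 h. Between B-CKO 24 h and 48 h they correlated at 0.126, 0.183 and 0.117. In the other comparisons at least 1 pair was under 0.1. No fit given as the main result held a pairing term, and the replicate block was run only as an alternative. Alternatives were a pseudocount of 0.1, a mean of at least 1 FPKM, TPM and median ratio scaling, the replicate block, 1 fit of 18 libraries and leaving out each library.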

Additional observations from a re-analysis of the deposited data

How the results depend on the processing

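None of the called results followed under the alternatives reversed. Shares of all genes called were counted for the reported fits only, so the member counts under alternatives have no such share beside them. For B-CKO against control at 24 h, 0 members called became 1 with a pseudocount of 0.1 (*Mrpl12*), 4 with a mean of at least 1 FPKM (*Mrpl12*, *Mrps31*, *Mrpl49* and *Mrps22*) and 8 with that filter and the replicate block together, an alternative chosen after seeing the data; the filter tests fewer genes. For control cells at 48 h against 24 h, 27 members were called in 1 fit of 18 libraries, with 0 higher; the cause was not tested. The median of that comparison was -0.26 with TPM and -0.17 with median ratio scaling. TPM scaling gave medians of 1.21 for B-CKO at 24 h against 0 h, -0.31 at 48 h against 24 h and 0.89 at 48 h against 0 h. It moved the median of genes of at least 1 FPKM in control cells at 24 h from 0.03 to -0.12.

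Leaving out 1 library gave 76 to 78 members called at 24 h against 0 h in both genotypes, 41 to 49 in control and 47 to 53 in B-CKO cells at 48 h against 24 h, and 75 to 77 at 48 h against 0 h in both. The medians ran from -0.23 to -0.18 for control cells at 48 h against 24 h, and the genotype comparisons and interactions had 0 members called. With the replicate block 77 members were called in both genotypes at 24 h against 0 h, 43 in control (2 higher, 41 lower) and 51 in B-CKO cells (3 higher, 48 lower) at 48 h against 24 h, and 0 between genotypes. Single members were followed under alternatives in 64 results, those with the largest changes or the smallest p in a comparison. Among these, 847 values kept their side of the threshold, 36 lost it and 9 gained it. Other named results, such as the call of *Mrpl27* in B-CKO cells at 24 h, were not followed. Total depth is unknown and 3 libraries a group limit precision.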
